A study of Mus musculus with 4 samples.

Results

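Neuropeptide precursor genes encode the prepropeptides from which neurons cut the small peptides they release beside their fast transmitters. The 10 precursor genes described here were chosen by symbol as Penk, Pdyn, Pnoc, Tac1, Tac2, Crh, Adcyap1, Nts, Cartpt and Grp, and each symbol was matched to its mouse Ensembl gene. All 10 were listed in all 4 samples, out of 26328 genes listed in at least 1 sample, and all 10 were among the 18436 genes kept for testing (at least 0.5 RPKM in at least 2 samples). RPKM, the reads of a gene divided by its length and by the mapped reads of the sample, is a level per length, so genes can be set beside each other.

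The RNA came from the hippocampus of male C57BL/6 mice, with 2 samples of wild-type (WT) and 2 of Lsd1 knock-in (KI) littermates. LSD1 (gene Kdm1a) is a histone demethylase, and the KI mice, Lsd1 SA/SA, carry on both alleles an alanine in place of the serine that protein kinase C alpha phosphorylates, in every cell of the body and from conception. The labels give an age of 8 to 15 weeks for the mice of the behavioural tests and no separate age for the RNA. The comparison of KI with WT asks which hippocampal transcripts differ when this phosphorylation cannot occur, in mice studied for presynaptic function, learning and memory.

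Depth, recovered from the steps in which RPKM values occur, was 13414957 and 8827967 mapped reads in WT 1 and WT 2, and 14381252 and 14949756 in KI 1 and KI 2, so a given RPKM value rests on the fewest reads in WT 2. Kdm1a RNA was 11.6, 11.2, 11 and 11.2 RPKM in WT 1, WT 2, KI 1 and KI 2, which does not check the labels, since an amino acid substitution need not alter the RNA level. KI 1 stood apart in choroid plexus genes: Ttr, the transthyretin of that tissue, was at 51.3 RPKM there and between 8.13 and 13.8 RPKM in the other 3 samples. The labels do not say whether each sample is 1 mouse, and p-values here measure the spread between these samples, which may be technical. With 2 samples against 2, an exact permutation test of a single gene cannot give a two-sided p below 0.333.

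A precursor enters the secretory pathway, is cut at pairs of basic residues by prohormone convertases, is trimmed by carboxypeptidase E and is stored in dense-core vesicles. The peptides act on G protein-coupled receptors, more slowly and over longer distances than glutamate or GABA. In the hippocampus dynorphin and enkephalin are made by granule cells of the dentate gyrus and lie in their mossy fibres, PACAP marks mossy cells of the hilus, and substance P, neurokinin B, nociceptin and CRH are made by sets of interneurons. In whole tissue, fewer cells of a type and less RNA per cell cannot be told apart.

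Several of these genes are classical targets of cAMP and calcium signalling through CREB, which binds the cAMP response element (CRE). Because the KI samples were separated from the WT samples in Cartpt, Adcyap1, Tac2 and Pdyn, among the members with an entry in the RefSeq promoter table, their start-site regions are printed here 5′ to 3′ on the gene's own strand. RefSeq windows on GRCm38.p6, running from 250 bases before to 50 bases after a start site, were searched for 6 of the 10 members. Penk, Crh, Pnoc and Grp were not searched. Capitals mark the CRE letters TGACGTCA or, outside a full CRE, its half-site TGACG. The Adcyap1, Tac2 and Pdyn stretches are the 150 bases just before a RefSeq start site. The Cartpt stretch of 30 bases lies farther upstream of its RefSeq start site, inside an annotated exon of another Cartpt transcript.
Cartpt, chr13:99900777-99900806, minus strand: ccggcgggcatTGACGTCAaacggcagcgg
Adcyap1, chr17:93198867-93199016, plus strand: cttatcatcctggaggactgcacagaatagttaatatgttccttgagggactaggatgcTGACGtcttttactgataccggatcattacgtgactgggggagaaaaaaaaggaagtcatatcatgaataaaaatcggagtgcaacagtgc
Tac2, chr10:127724328-127724477, plus strand: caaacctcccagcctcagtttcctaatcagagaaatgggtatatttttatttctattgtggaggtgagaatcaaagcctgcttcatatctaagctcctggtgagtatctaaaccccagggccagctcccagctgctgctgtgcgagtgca
Pdyn, chr2:129699939-129700088, minus strand: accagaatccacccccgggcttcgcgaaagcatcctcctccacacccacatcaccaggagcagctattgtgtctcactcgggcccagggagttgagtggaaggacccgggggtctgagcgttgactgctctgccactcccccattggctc

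Of the members searched, Cartpt alone held the full CRE, with its first base 112 bases before the start site. Of all 32851 promoter windows, searched on both strands, 1.79% held it. The half-site, which every full CRE contains and which 20.81% of all windows held, was also found in the windows of Adcyap1 (91 bases before the start site shown), Nts (166 bases before) and Tac1 (197 and 43 bases before). Tac1 also held the E-box letters CACGTG, present in 7.15% of all windows, 61 bases before its start site. The windows of Pdyn and Tac2 held none of the 3 motifs. A match describes letters in the window and says nothing about binding.

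The levels of the 10 precursors spanned a wide range. Penk, the enkephalin precursor, was the highest at a mean of 21.7 RPKM over the 4 samples, and was above 83.3% of the genes tested. Grp, the gastrin-releasing peptide precursor, followed at 11.1 RPKM, and Nts, the neurotensin precursor, at 5.32 RPKM. The middle of the order was held by Pdyn at 4.16, Pnoc at 3.81 and Tac2 at 2.75 RPKM.

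Adcyap1, Tac1, Cartpt and Crh had the lowest means, at 1.8, 1.42, 1.0 and 0.787 RPKM, and Crh was above only 9.0% of the genes tested. Neighbours whose ranges over the 4 samples overlapped were Nts and Pdyn, Pdyn and Pnoc, Tac2 and Adcyap1, Adcyap1 and Tac1, and Cartpt and Crh. Compared within each sample, Adcyap1 was above Tac1 in all 4. Nts was also above Pdyn in all 4, but barely so in KI 2 (4.27 and 4.26 RPKM). The other overlapping pairs changed order between samples, so their order is not set by these data. Ranges did not overlap between Penk and Grp, Grp and Nts, Pnoc and Tac2, or Tac1 and Cartpt. Summed over the 10 genes, the level was 51.8 and 54.0 RPKM in WT and 56.2 and 53.3 RPKM in KI, with Penk making up between 38.5% and 42.3% of it.

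**Figure D1:**
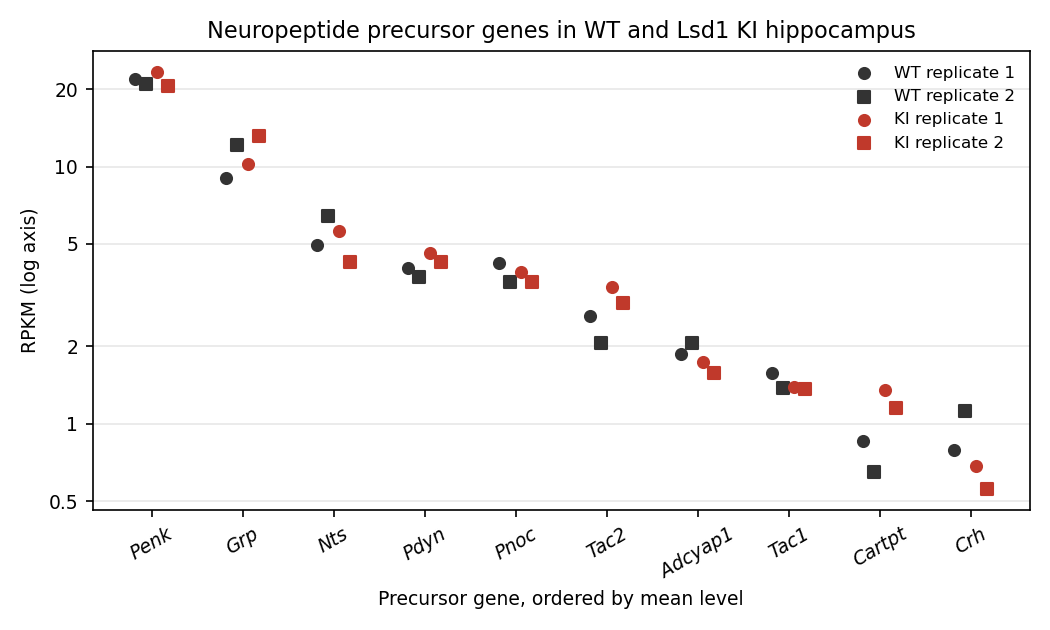
RPKM of the 10 precursor genes in each of the 4 samples on a log axis, in order of their mean, with WT in black, KI in red, replicate 1 as circles and replicate 2 as squares. Penk lies highest, at a mean of 21.7 RPKM, and Crh lowest, at 0.787 RPKM, and the red points lie above the black ones in Pdyn, Tac2 and Cartpt and below them in Adcyap1 and Crh.

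None of the 10 precursors passed the limma test of KI against WT at an adjusted p under 0.1 and a fold of at least 1.2. Of all 18436 genes tested none did (0%), and the smallest adjusted p was 0.197 (limma). The study's own test for counts did list changed genes from these 4 samples. The 0 therefore belongs to the test used here and does not show that no gene differs. Without adjustment for multiple tests, at p under 0.05, 1 member was higher in KI (Cartpt) and 0 were lower, against 6.3% higher and 3.33% lower over all genes. For Cartpt this did not hold with the replicate number as a block, under quantile scaling, or without any 1 of WT 2, KI 1 and KI 2. The 2 KI samples were both above the 2 WT samples in 3 members (Cartpt, Tac2 and Pdyn), against 24.0% of all genes tested, and both below them in 2 members (Crh and Adcyap1), against 18.1%. The count below was 4 without WT 2 and 6 without KI 1, where a group of 1 separates more easily. In Penk, Tac1, Nts, Pnoc and Grp the groups overlapped. The median log2 fold change of the 10 was −0.01, beside 0.013 over all genes tested, and single members ranged from −0.26 to 0.36. Fold changes are differences of mean log2(RPKM + 1), KI minus WT, and understate the change of genes near or below 1 RPKM.

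**Figure D2:**
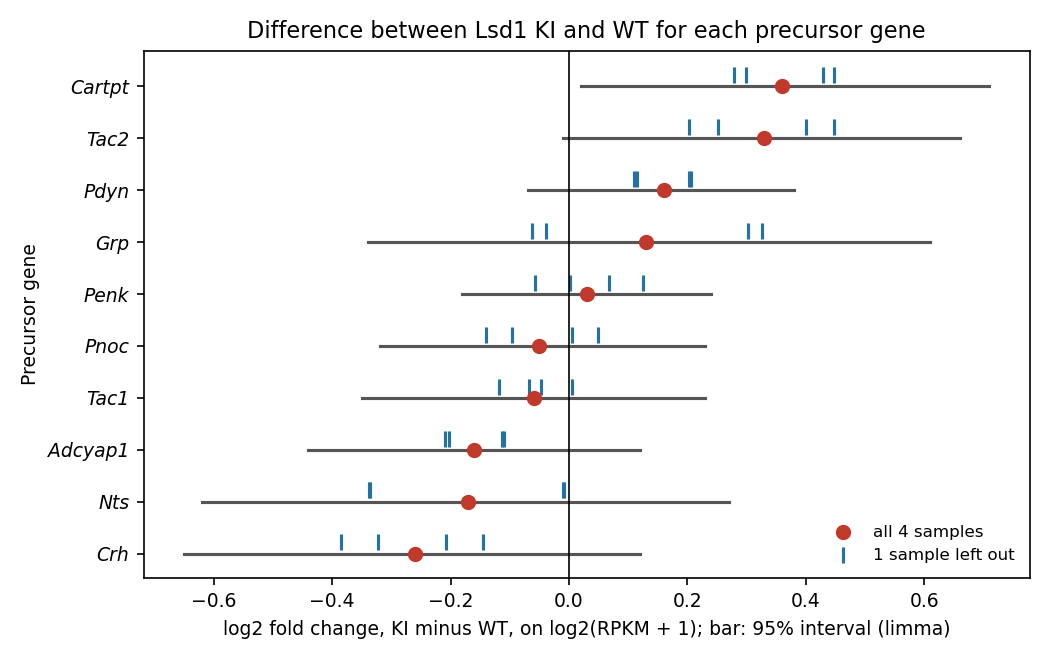
Log2 fold change (KI minus WT, on log2(RPKM + 1)) of each precursor gene as a red point with its 95% confidence interval from limma as a bar, and the value with each sample left out as a blue tick. The intervals of 9 genes include 0, and that of Cartpt runs from 0.02 to 0.71.

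Among the opioid precursors Penk did not differ beyond its spread and Pdyn was slightly higher in both KI samples. Penk (ENSMUSG00000045573, GRCm38 chromosome 4, 4133531 to 4138819, minus strand), whose peptides act at delta and mu opioid receptors, was at 21.9 and 20.9 RPKM in WT and 23.4 and 20.5 RPKM in KI. KI 1 was the highest and KI 2 the lowest of the 4, and the log2 fold change was 0.03 (SE 0.08, adjusted p = 0.926, limma). With 301 to 550 reads a sample, Penk was the most deeply counted member, and its 95% interval of −0.18 to 0.24 lay within a 1.2-fold change in either direction on this scale. Without KI 1 the fold change was −0.057.

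Pdyn (ENSMUSG00000027400, chromosome 2, 129686565 to 129699844, minus strand) encodes the dynorphins, which act at the kappa opioid receptor and in mossy fibres restrain glutamate release. It was at 4.03 and 3.73 RPKM in WT and 4.62 and 4.26 RPKM in KI. Both KI samples were above both WT samples, by 1.15-fold in the means (3.88 ± 0.212 in WT and 4.44 ± 0.255 in KI, SD, n = 2 each). This log2 fold change of 0.16 (SE 0.09) was larger than the gap between the WT samples (0.09) or between the KI samples (0.10), but limma gave an adjusted p of 0.608. Where groups do not overlap, the difference is at least the mean of the 2 gaps, so this comparison adds little to the separation itself.

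Pnoc (ENSMUSG00000045731, chromosome 14, 65400673 to 65425472, minus strand), the precursor of nociceptin, was at 4.22 and 3.57 RPKM in WT and 3.9 and 3.57 RPKM in KI. The groups overlapped, with both second replicates at nearly the same value, and the log2 fold change was −0.05 (SE 0.10, adjusted p = 0.923, limma). It was 0.049 without WT 1 and 0.005 without KI 2, so its sign rested on single samples.

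Of the tachykinin precursors, Tac1 overlapped between the groups and Tac2 was higher in both KI samples. Tac1 (ENSMUSG00000061762, chromosome 6, 7554879 to 7565834, plus strand) encodes substance P and neurokinin A, and was at 1.58 and 1.37 RPKM in WT and 1.39 and 1.36 RPKM in KI. WT 1 was the highest and the other 3 samples lay close together. For Tac1 the log2 fold change was −0.06 (SE 0.11, adjusted p = 0.907, limma), and 0.005 without WT 1.

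Tac2 (ENSMUSG00000025400, chromosome 10, 127724478 to 127731768, plus strand), the precursor of neurokinin B, was at 2.62 and 2.05 RPKM in WT and 3.39 and 2.95 RPKM in KI. Both KI samples were above both WT samples, and the means were 2.33 ± 0.399 and 3.17 ± 0.305 RPKM (SD, n = 2 each), a ratio of 1.36. The log2 fold change of 0.33 (SE 0.13) exceeded both within-group gaps (0.24 in WT and 0.15 in KI), with an adjusted p of 0.518 (limma). As for Pdyn, exceeding the gaps follows largely from the separation of the groups. The WT values rest on 47 reads in all and the KI values on 82, and the depth-corrected ratio of the pooled reads was 1.323 with an exact 95% counting interval of 0.913 to 1.936.

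Tac2 and Tac1 are also strong markers of the medial habenula, which lies near the hippocampus. The list of 14 habenula and thalamus markers holds both. Of its other 12 genes 8 were tested, with 1 higher and 3 lower in both KI samples, beside 24.0% and 18.1% of all genes tested. The 12 summed to 40.9 and 35.8 RPKM in WT and 43.0 and 38.1 RPKM in KI. The higher gene was Prkcd, a kinase gene of thalamic neurons, at 7.88 and 6.48 RPKM in WT and 12.4 and 9.07 RPKM in KI (adjusted p = 0.49, limma). The nicotinic receptor genes Chrna3 and Chrnb4, too low to be tested, were also higher in both KI samples, at no more than 0.401 RPKM in any sample. The habenular transcription factor Pou4f1 was at 0 in WT 1 and KI 2 and at 0.0402 and 0.0247 RPKM in WT 2 and KI 1. The habenular receptor gene Gpr151 was lower in both KI samples, at 0.73 and 0.624 RPKM in WT and 0.341 and 0.451 RPKM in KI. The part of habenular tissue in the Tac2 value was not tested.

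Precursor RNA of CRH and PACAP, Crh and Adcyap1, was lower in both KI samples, and neither gene passed the test. Crh (ENSMUSG00000049796, chromosome 3, 19693401 to 19695396, minus strand) encodes corticotropin-releasing hormone and was at 0.791 and 1.12 RPKM in WT and 0.685 and 0.557 RPKM in KI. Both KI samples were below both WT samples, with means of 0.953 ± 0.23 and 0.621 ± 0.0901 RPKM (SD, n = 2 each), and WT 2 lay farthest from the rest. The log2 fold change was −0.26 (SE 0.15, adjusted p = 0.608, limma), and with a pseudocount of 0.1 in place of 1 it was −0.53.

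These Crh values rest on 11 to 14 reads a sample. The 1.12 RPKM of WT 2 came from 13 reads, with an exact 95% counting interval of 0.594 to 1.91 RPKM that contains the values of WT 1 and KI 1 but not that of KI 2. Pooled, the depth-corrected ratio was 0.674 with a counting interval of 0.372 to 1.213. This interval includes 1, so counting alone did not set WT and KI apart in Crh.

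Adcyap1 (ENSMUSG00000024256, chromosome 17, 93199017 to 93206537, plus strand), the precursor of PACAP, a peptide that raises cAMP through its receptor, was at 1.86 and 2.06 RPKM in WT and 1.73 and 1.57 RPKM in KI. Both KI samples were below both WT samples, at 1.96 ± 0.145 against 1.65 ± 0.115 RPKM (SD, n = 2 each). Its log2 fold change of −0.16 (SE 0.10) exceeded the gaps within WT (0.10) and KI (0.09), which follows largely from the separation of the groups. The adjusted p was 0.671 (limma).

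Nts and Grp overlapped between the groups, with gaps inside each group larger than the difference between groups. Nts (ENSMUSG00000019890, chromosome 10, 102481756 to 102490486, minus strand), which in and near the hippocampus marks cells of the subiculum, was at 4.94 and 6.45 RPKM in WT and 5.62 and 4.27 RPKM in KI. The groups overlapped, the gap inside each group was 0.33 on the log2 scale, and the log2 fold change was −0.17 (SE 0.17, adjusted p = 0.78, limma).

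Grp (ENSMUSG00000024517, chromosome 18, 65872820 to 65886596, plus strand) encodes gastrin-releasing peptide, whose receptor sits on inhibitory neurons of cortex, amygdala and hippocampus. It was at 9.01 and 12.1 RPKM in WT and 10.2 and 13.1 RPKM in KI, so the second sample of each group was higher than the first. The log2 fold change of 0.13 (SE 0.18, adjusted p = 0.854, limma) was smaller than the gaps of 0.39 and 0.34 within WT and KI. It was −0.063 without WT 1 and −0.039 without KI 2. Grp rested on 115 to 211 reads a sample and Nts on 67 to 95.

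Cartpt had the largest ratio of the 10. Cartpt (ENSMUSG00000021647, chromosome 13, 99898489 to 99901091, minus strand), whose CART peptides were first named as transcripts induced by cocaine and amphetamine, was at 0.853 and 0.648 RPKM in WT and 1.35 and 1.15 RPKM in KI. Both KI samples were above both WT samples, at means of 0.75 ± 0.145 and 1.25 ± 0.145 RPKM (SD, n = 2 each), a ratio of 1.67. The log2 fold change was 0.36 (SE 0.13, adjusted p = 0.506, limma), and 0.67 with a pseudocount of 0.1. With 15 reads over the WT samples and 32 over the KI samples, the pooled depth-corrected ratio was 1.618. Its exact 95% counting interval of 0.851 to 3.215 includes 1, so counting alone did not set WT and KI apart in Cartpt.

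**Figure D3:**
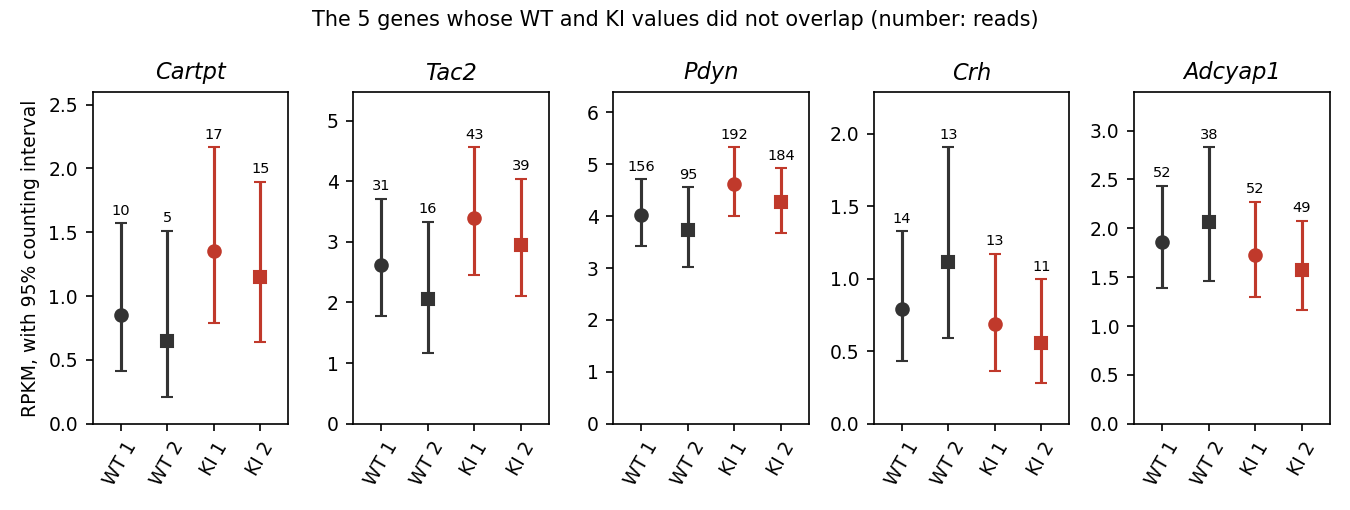
RPKM (vertical axes, from 0) of the 5 genes whose groups did not overlap, in WT 1, WT 2, KI 1 and KI 2, with exact 95% counting intervals as bars and the number of reads above each. The intervals of WT and KI samples overlap within every gene, and are widest relative to the value in Cartpt, where WT 2 holds 5 reads (0.21 to 1.51 RPKM).

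The counting interval of the pooled ratio included 1 in all 10 members, and was narrowest in Penk (0.929 to 1.121). Intervals on reads cover counting error only and leave out the spread between mice. For Penk, Pdyn, Tac1, Crh and Pnoc the gene length implied by the RPKM steps equalled the annotated exon length, and for the other 5 members the reads are the smallest whole numbers that give all 4 values.

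The receptors of these peptides were measured in the same samples. Of 16 receptor genes 9 passed the filter, none of them passed the test, 1 had an unadjusted p under 0.05, and the median log2 fold change was 0.09. Of the 9, 5 were higher and 3 lower in both KI samples. Over all genes tested 24.0% were higher and 18.1% lower in both, the shares to set beside this and the lists that follow. Crhr1, the main CRH receptor, was at 3.67 and 3.32 RPKM in WT and 4.89 and 4.3 RPKM in KI. It was above WT in both KI samples with a log2 fold change of 0.32 (SE 0.10). Its ligand gene Crh was lower in both KI samples. Higher Crhr1 in KI hippocampus is also reported in the paper by quantitative RT-PCR.

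Oprd1, the delta opioid receptor, was lower in both KI samples, at 4.13 and 4.7 RPKM in WT and 3.53 and 3.93 RPKM in KI. Adcyap1r1, the PACAP receptor, was also lower in both, at 28.8 and 28.3 RPKM in WT and 25.1 and 27.8 RPKM in KI, the same direction as its ligand gene. Oprl1, the nociceptin receptor, was at 8.64 and 9.09 RPKM in WT and 9.32 and 9.68 RPKM in KI, while Pnoc overlapped. Sort1, a sorting receptor that binds neurotensin, was at 101 RPKM in both WT samples and at 97.4 and 94.5 RPKM in KI. The receptor genes Oprm1, Oprk1, Tacr1, Tacr2, Tacr3, Vipr2 and Grpr did not reach 0.5 RPKM in at least 2 samples and were not tested. They include the receptors for substance P, neurokinin B, dynorphin and GRP.

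No gene that processes, stores or degrades the peptides passed the test. All 26 genes of peptide processing and dense-core vesicles were tested, 2 had an unadjusted p under 0.05, 3 were higher and 6 lower in both KI samples, and the median log2 fold change was 0.0. Chga, a granin of dense-core vesicles, was at 75.9 and 79.1 RPKM in WT and 86.3 and 84.3 RPKM in KI. Rab26, a small GTPase of secretory vesicles, was at 14.1 and 14.8 RPKM in WT and 16.4 and 18 RPKM in KI.

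Pcsk2, the convertase that cuts proenkephalin and prodynorphin, was at 37.1 and 39.5 RPKM in WT and 35.9 and 34.9 RPKM in KI. Of the list of 10 extracellular peptidases and the CRH-binding protein, 9 were tested, 3 were higher and 1 lower in both KI samples, and the median log2 fold change was 0.04. The lower gene, Crhbp, was at 16.1 and 15.8 RPKM in WT and 9.73 and 13.7 RPKM in KI, with a log2 fold change of −0.43 and an adjusted p of 0.508 (limma). Crhbp binds CRH and limits its action, and it is in the study's own list of lower genes made from these 4 samples, which is not independent evidence of its direction.

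Of 52 other neuropeptide precursors 42 were listed and 23 tested, none passed, 8 were higher and 2 lower in both KI samples, and the median log2 fold change was 0.12. The precursors with the smallest unadjusted p were Npy, Spx, Apln and Cbln1. Npy, the neuropeptide Y of hippocampal interneurons, was at 80.5 and 79.7 RPKM in WT and 48.6 and 62.2 RPKM in KI, with a log2 fold change of −0.53 (SE 0.12, adjusted p = 0.399, limma). Its difference was larger than that of any of the 10 members on this scale, which understates the change of genes near or below 1 RPKM. As a ratio of means, KI over WT, Npy was at 0.692, beside 1.67 for Cartpt and 0.652 for Crh, which lay farther from no change.

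Spx, the spexin precursor, was at 0.759 and 0.833 RPKM in WT and 1.46 and 1.48 RPKM in KI. Apln, the apelin precursor, was at 5.42 and 6.33 RPKM in WT and 8.92 and 7.54 RPKM in KI. Cbln1, a precerebellin, was at 1.28 and 0.777 RPKM in WT and 2.0 and 3.53 RPKM in KI, and its KI samples differed from each other by more than the WT samples did. The study's own lists, drawn from these libraries, hold 3 of the 52 and none of the 10 members.

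**Figure D4:**
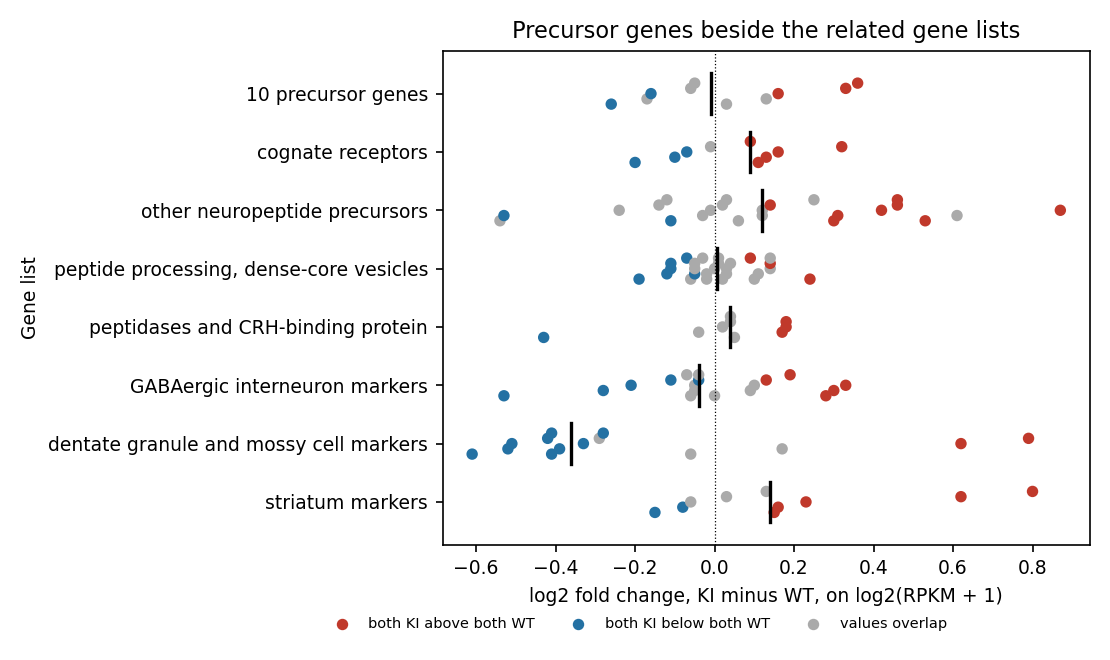
Log2 fold change (KI minus WT, on log2(RPKM + 1)) of each tested gene, 1 row for each list, coloured by whether the KI samples were all above the WT samples (red), all below them (blue) or overlapped (grey), with the list's median as a bar. The median of the 10 precursors lies at −0.01 and that of the dentate granule and mossy cell markers at −0.36.

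Markers of the cells and regions that express these precursors were read in the same way, beside 24.0% of all genes tested higher and 18.1% lower in both KI samples. The dentate granule and mossy cell markers summed to 218 to 225 RPKM in WT and 173 to 194 RPKM in KI, 9 of 14 were lower and 2 higher in both KI samples, and their median log2 fold change was −0.36. The granule cell marker C1ql2 was at 41.8 and 44.0 RPKM in WT and 30.7 and 34.2 RPKM in KI. The mossy cell marker Drd2 was 1 of the 2 higher genes, so the list median does not describe both cell types. Of the precursors that granule cells express, Pdyn was higher in both KI samples and Penk overlapped. The study's own lists hold 10 of these 14 markers, so their direction is not independent evidence, and the part of granule cell content in the Penk and Pdyn values was not tested.

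Drd2, the dopamine receptor that marks hilar mossy cells and also striatal neurons, was at 1.3 and 1.24 RPKM in WT and 2.51 and 2.46 RPKM in KI. Its adjusted p was 0.307 (limma). By quantitative RT-PCR of hippocampal RNA, the paper also reports higher Drd2 in KI mice. Adcyap1, whose peptide PACAP also marks mossy cells, was lower in both KI samples. The part of mossy cell content in the Adcyap1 value was not tested. The list of 13 striatum markers holds Penk, Tac1 and Pdyn. Its other 10 genes had a median log2 fold change of 0.15 over the 7 tested, of which 4 were higher and 2 lower in both KI samples, and summed to 28.6 and 27.9 RPKM in WT and 33.0 and 32.3 RPKM in KI. The striatal genes Six3 and Isl1 did not exceed 0.31 RPKM in any sample. The part of neighbouring striatal or septal tissue in the Pdyn value was not tested.

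Interneuron markers (18 of 18 tested) had a median log2 fold change of −0.04, with 5 higher and 5 lower in both KI samples and summed levels of 535 RPKM in both WT samples and 494 and 508 RPKM in KI. Pvalb, of fast-spiking interneurons, was higher in both KI samples, at 15.5 and 16.0 RPKM in WT and 21.2 and 19.1 RPKM in KI, while Npy was lower. Beside them, Tac1 and Pnoc, which interneurons express, overlapped, and Crh was lower in both KI samples.

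The hypothalamus and amygdala markers had a median log2 fold change of 0.25 over the 7 of 18 tested and summed to 17.5 to 19.6 RPKM in WT and 22.6 to 27.5 RPKM in KI. Baiap3 was at 1.44 and 1.51 RPKM in WT and 2.33 and 2.63 RPKM in KI (adjusted p = 0.364, limma), and Meis2 and Zic1, both transcription factor genes, were likewise higher in both KI samples, with means of 5.01 and 6.15 RPKM for Meis2 and 3.72 and 7.97 RPKM for Zic1 in WT and KI. Tshz1 was lower in both, with means of 3.91 and 3.22 RPKM. Of the hypothalamic peptide genes that define that region and were too low to be tested, Gal was at 0.314 and 0.318 RPKM in WT and 1.17 and 0.47 RPKM in KI, and Oxt at 0.139 and 0 RPKM in WT and 0.388 and 0.249 RPKM in KI. Avp was at 0 in both WT samples and at 0.121 and 0.116 RPKM in KI, and Hcrt did not exceed 0.186 RPKM in any sample. The groups overlapped in Hcrt, in Pmch and Trh, which were also too low to be tested, and in the tested peptide genes Agrp and Pomc. The 13 neocortex and subiculum markers other than Nts summed to 72.0 and 78.6 RPKM in WT and 84.3 and 87.9 RPKM in KI, and 6 of the 12 tested were higher and 0 lower in both KI samples. The study's own lists hold 3 of these 18 hypothalamus and amygdala markers, 4 of the 14 neocortex and subiculum markers, 2 of the interneuron markers and 1 of the striatum markers. The part of tissue from these regions in the Cartpt, Crh and Nts values was not tested.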

How the data were processed

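Hippocampal poly(A) RNA of 2 WT and 2 KI samples was sequenced in paired-end mode. Per the labels and the study's methods, the authors aligned the pairs with GSNAP (mm10), used those placed properly at a single locus, counted them per Ensembl gene and deposited RPKM values, 1 table per sample. A gene absent from a table was set to 0. The study used a test for counts, which RPKM values do not allow, so limma (3.58.1, R 4.3.3) was run here on log2(RPKM + 1) with a mean-variance trend over the 18436 genes that reached 0.5 RPKM in 2 or more samples, and p-values were adjusted over all of them by Benjamini-Hochberg. The threshold was an adjusted p under 0.1 and at least 1.2-fold. The code was tested on simulated data. Reads were recovered from the whole-number steps of RPKM values and used for depth and counting intervals only (exact, 95%). Locations are from GENCODE on GRCm38 and promoter windows from RefSeq on GRCm38.p6.

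The members and the gene lists were chosen with earlier results of these data known. Named genes are all 10 members and, in each list, up to 4 tested genes with the smallest unadjusted p. Genes named beyond that rule (Kdm1a, Oprl1, Pou4f1, Chrna3, Chrnb4, Six3, Isl1, Avp, Hcrt, Gal, Oxt, Pmch, Trh, Agrp, Pomc and the untested receptors) were chosen after their values were seen. A gene that the rule names is not reported here. Alternatives changed the pseudocount, filter, trend, scaling, fold limit, replicate block and samples left out.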

Additional observations from a re-analysis of the deposited data

How the results depend on the processing

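Over 12 alternatives none of the 10 precursors passed the threshold, and the smallest adjusted p of any member was 0.471. Over all genes the count past the threshold was 0 except for 20 without a mean-variance trend. Of 109 recomputed member values, 103 kept their direction and 6 reversed, all on leaving out 1 sample (Penk without KI 1, Tac1 without WT 1, Pnoc at 0.049 and 0.005 and Grp at −0.063 and −0.039 without WT 1 and KI 2). With 1 sample left out, Penk ranged from −0.057 to 0.125, Tac1 from −0.119 to 0.005, Pnoc from −0.141 to 0.049, Grp from −0.063 to 0.326, Pdyn from 0.11 to 0.206, Tac2 from 0.203 to 0.448, Cartpt from 0.279 to 0.448, Crh from −0.385 to −0.145, Adcyap1 from −0.209 to −0.109 and Nts from −0.338 to −0.008. There the lone sample of a group is assumed to vary like the others. The number of members with both KI values below both WT values was 2, and ranged from 2 to 6 (4 without WT 2 and 6 without KI 1), and the number above from 3 to 4. The unadjusted p of Cartpt was under 0.05 in the analysis reported and missed it under quantile scaling, the filter on mean RPKM, the replicate block, and without WT 2, KI 1 or KI 2. Crh was not tested with a mean of at least 1 RPKM required. The labels do not say that the replicate numbers pair samples, and deviations of same-numbered samples correlated at −0.0249 over 18436 genes. With the replicate number as a block the number of members past the threshold stayed 0, and the smallest adjusted p over all genes was 0.359. Low read numbers limit Crh and Cartpt most, with 5 to 17 reads a sample.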
